A study of Homo sapiens with 6 samples.

Results

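The genes described here are the transcription factor ATF4, its best-known target genes, the enzymes of serine and folate-linked carbon metabolism, amino acid transporters and the cytosolic tRNA synthetases. They were taken from a list of 39 symbols matched to the platform annotation, with the brightest probe set kept for each gene. Of the 39 members, 35 were measured among 17687 genes in all. ATF5, SHMT1, MARS1 and VLDLR-AS1, an antisense RNA, had no expression value here but were counted in the promoter search. The cells were A375, an established human melanoma line, whose RNA was extracted 3 days after transfection with a predesigned siRNA against ERK3 (siERK3, 3 arrays) or a negative control siRNA (siCon, 3 arrays). Both groups were grown in the same medium with serum, and no other treatment is named in the labels. All 6 samples come from a single cell line, and 1 siRNA product is named for each group. The comparison asks which transcripts differ when ERK3, the atypical MAP kinase encoded by MAPK6, is depleted.

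ATF4 is the central transcription factor of the integrated stress response. When a kinase phosphorylates the translation factor eIF2, general protein synthesis drops while the ATF4 message is translated more, so ATF4 protein is controlled largely at translation. The protein pairs with C/EBP-type partners and switches on genes for amino acid synthesis, amino acid import and tRNA charging through a composite DNA element, the C/EBP-ATF response element. In tumour cells this program supplies serine, asparagine and folate-bound carbon units for growth. The arrays measured RNA only.

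A sequence feature was then looked up in the members' promoters. The letters TGATGNAA, the core of the C/EBP-ATF response element, were searched on both strands of the RefSeq promoter windows (GRCh38.p14), which run from 250 bases before to 50 after each annotated start. A gene was counted as holding the motif if any of its windows did. Of the 33 members with a window, 14 held the motif (42.4%), against 4.46% of 27305 genes with a window and 3.62% of all windows. The match was uneven between roles: 7 of 10 tRNA synthetases and 4 of 6 transporters held it, but 1 of 8 stress regulators (CEBPG) and 1 of 5 serine and folate enzymes (MTHFD1L). Of the cytosolic synthetase genes and their scaffold partners outside the members, 0 of 9 held it. Of the mitochondrial synthetases 1 of 14 did, YARS2. Members of the list are known ATF4 targets in part, so the share is a description of the list. ALDH1L2, LARS1, PSPH, PYCR1, SHMT2 and YARS1 had no window in the table.

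**Figure D1:**
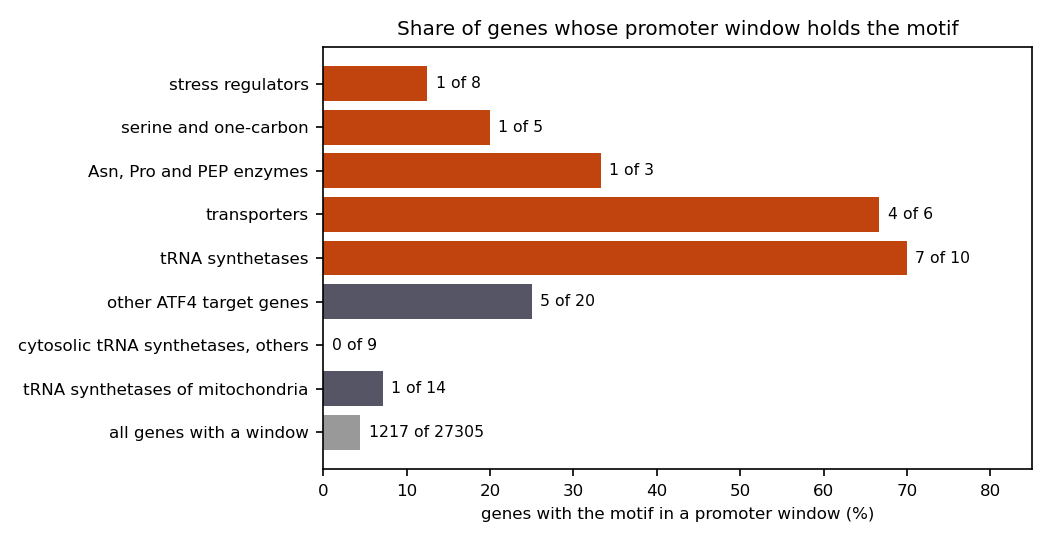
Share of genes (x axis, percent) whose RefSeq promoter window holds TGATGNAA on either strand, for the role groups of the members (orange), related gene lists (dark) and all genes (grey), with counts beside the bars. The transporters (4 of 6) and tRNA synthetases (7 of 10) stand highest, and the remaining cytosolic synthetase genes with their scaffold partners are at 0 of 9.

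The sites of 10 measured members are shown because they match the core of the element that ATF4 is known to bind, and because in several synthetases the match lies at or beside the start. They are matches of letters, and binding was not measured. Each run has 30 bases on the gene's own strand, 5′ to 3′, with the motif in capitals; TTNCATCA is the same motif on the opposite strand.
ASNS, chr7:97872458-97872487, minus strand: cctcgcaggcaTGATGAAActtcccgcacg
CEBPG, chr19:33374060-33374089, plus strand: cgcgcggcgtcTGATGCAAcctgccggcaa
MTHFD1L, chr6:150866346-150866375, plus strand: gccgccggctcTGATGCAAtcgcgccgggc
SLC1A4, chr2:64989381-64989410, plus strand: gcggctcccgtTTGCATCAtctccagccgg
AARS1, chr16:70289675-70289704, minus strand: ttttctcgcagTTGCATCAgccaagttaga
GARS1, chr7:30594834-30594863, plus strand: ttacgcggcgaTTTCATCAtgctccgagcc
IARS1, chr9:92293692-92293721, minus strand: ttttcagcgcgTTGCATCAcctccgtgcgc
CARS1, chr11:3057407-3057436, minus strand: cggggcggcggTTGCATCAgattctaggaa
NARS1, chr18:57621804-57621833, minus strand: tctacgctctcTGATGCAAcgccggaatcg
TARS1, chr5:33440956-33440985, plus strand: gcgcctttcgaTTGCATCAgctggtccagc

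ASNS, CEBPG, SLC1A4, GARS1, TARS1 and CARS1 held the site in 1 of 2 windows and MTHFD1L in 3 of 4. Positions refer to 1 annotated start, the one with the match farthest upstream of it. In ASNS the site began 68 bases before the start. In MTHFD1L and AARS1 it began farther upstream. In IARS1 it began 13 bases before the start, in CARS1 and SLC1A4 it spanned the start, and in NARS1 and TARS1 it lay just after it. ASNS and GARS1 carried TGATGAAA and the other 8 TGATGCAA, read on either strand. The 250 bases before the ASNS start (chr7:97872409-97872658, minus strand), shown with the same site in capitals because ASNS is the textbook reporter of the pathway, read as follows.
ASNS upstream: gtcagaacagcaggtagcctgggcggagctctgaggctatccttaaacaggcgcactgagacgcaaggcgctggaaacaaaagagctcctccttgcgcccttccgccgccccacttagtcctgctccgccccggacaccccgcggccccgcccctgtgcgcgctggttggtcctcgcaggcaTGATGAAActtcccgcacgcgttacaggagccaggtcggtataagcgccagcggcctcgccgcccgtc

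The siRNA target was lower as labelled. MAPK6 stood at 13.45, 13.55 and 13.62 on the siCon arrays and at 10.54, 10.32 and 10.67 on the siERK3 arrays (log2), an 8.18-fold fall (adjusted p = 0.000133 in limma; exact two-sided permutation p = 0.1, the smallest that 3 against 3 arrays allow). Array medians lay between 7.06 and 7.10, and a gene was called above background on an array where it exceeded the 95th percentile of 612 negative control probe sets, a level of 7.32 to 7.56. Among melanocyte lineage markers MITF, SOX10 and S100B were above background on all 6 arrays, while MLANA, PMEL, TYR and TYRP1 were below it on all 6. Of the leukocyte markers 3 of 4 measured, PTPRC among them, and all 4 endothelial and all 4 epithelial markers were below background throughout. The summed signal of the leukocyte list, carried by LYZ, was 9.46 to 9.79 in siCon and 8.55 to 9.06 in siERK3 (log2). That of the fibroblast list was 10.27 to 10.38 and 9.96 to 10.04, where LUM fell by 0.83 (adjusted p = 0.0441 in limma). COL1A2 of that list was above background on all 6 arrays, at 8.11 in siCon and 7.90 in siERK3. COL1A1 and DCN were below background throughout. PDGFRB of the same list had a difference of 0.75 (adjusted p = 0.0631 in limma) and was above background on the siERK3 arrays alone. The list had 3 genes higher and 2 lower, and the part of these markers in the results was not tested. The labels do not say that replicates were separate cultures, so p-values reflect only how far these arrays vary, and that variation may be technical.

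None of the 35 members passed limma's test over all genes (threshold 0.05 after Benjamini-Hochberg adjustment), against 0.956% of all genes tested. The smallest adjusted p was 0.133, for DDIT3. Differences, always siERK3 minus siCon on the log2 scale, ran from -0.61 to 0.55, with 18 members higher and 17 lower and a median of 0.00, close to that of all genes (-0.00). The unadjusted p was under 0.05 for 6 members, 17.1% against 13.5% of all genes. SLC1A4, PSAT1 and WARS1 were the 3 higher (6.98% of all genes were higher at that level) and DDIT3, ATF4 and MTHFD2 the 3 lower (6.5% of all genes). Of the 29 members above background on all 6 arrays, 13.8% reached that level, against 17.7% of the 7721 genes that were. The groups did not overlap for 12 members, or 34.3% against 19.8% of all genes. Of these, 5 were higher (10.1% of all genes) and 7 lower (9.7% of all genes). Among members above background on all arrays the share was 31.0%, near the 29.5% of all such genes.

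The data set limits on what could have been missed. Of the 29 members above background on all 6 arrays, 29 had a 95% interval of the difference within a 2-fold change in either direction. The interval lay within 1.5-fold for 23. Of all 7721 genes above background on all 6 arrays, 7440 had it within 2-fold and 5066 within 1.5-fold. These folds take the deposited scale as log2 with no stretch. The intervals of the other 6 (DDIT3, TRIB3, PCK2, SESN2, SLC1A4 and PSPH) set no limit on a fold, since some or all of their arrays were below background. The choice of variance model matters for 3 of the 35 members. A mean-variance trend with robust moderation called 722 of the 17687 genes in place of 169. With it ATF4 (adjusted p = 0.0295), PSAT1 (0.0166) and WARS1 (0.0112) passed in limma.

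**Figure D2:**
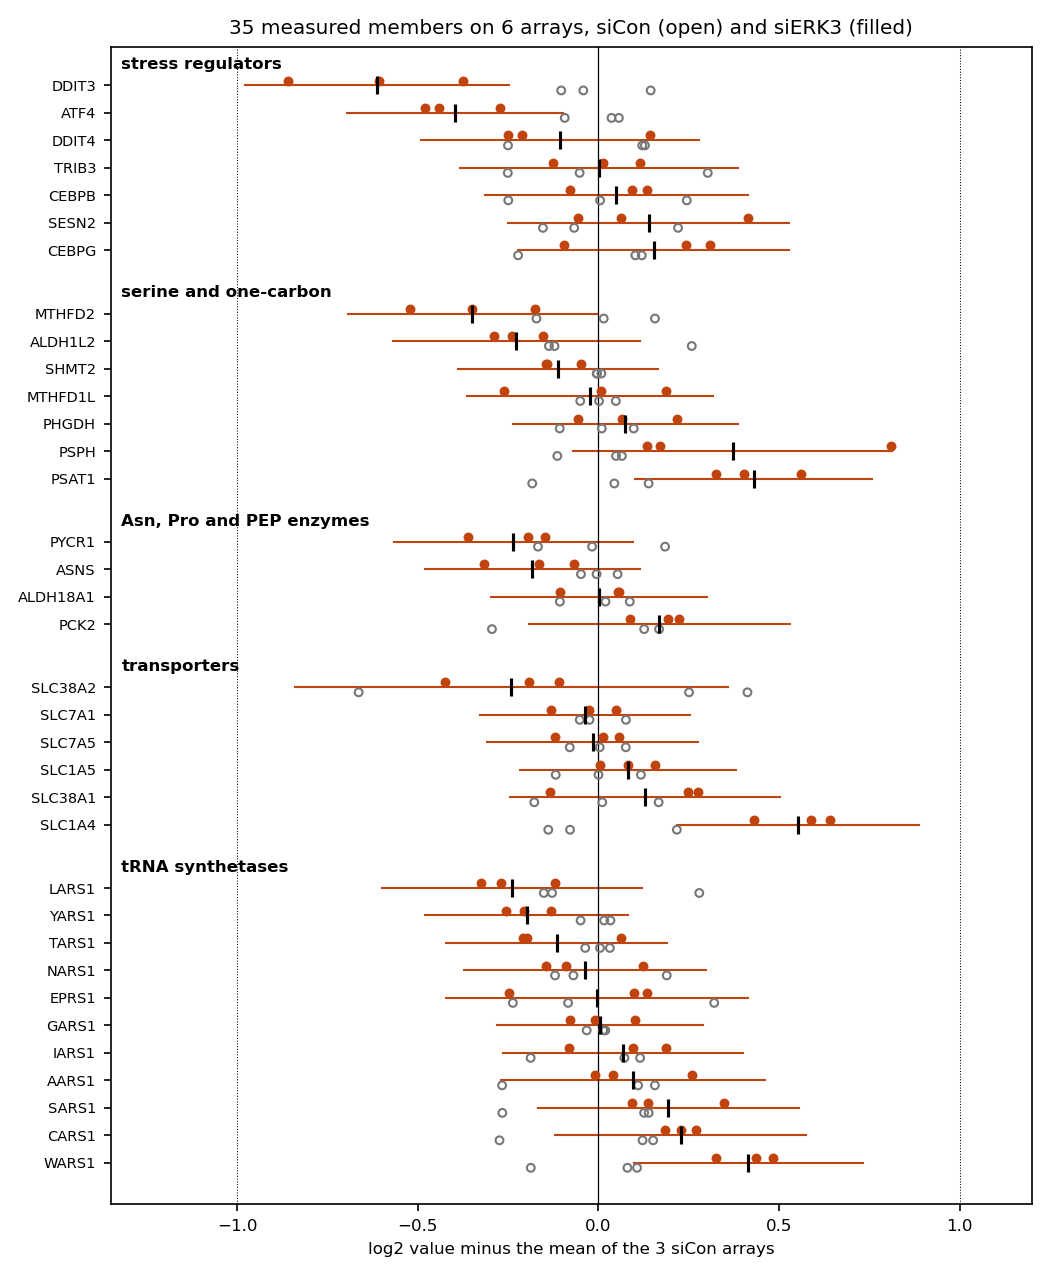
Log2 value of each of the 35 measured members on each array, minus its mean over the 3 siCon arrays (x axis), with siCon arrays open and siERK3 arrays filled, grouped by role. The black tick is the siERK3 minus siCon difference and the line its 95% interval from limma; dotted lines mark a 2-fold change. DDIT3, at -0.61, and SLC1A4, at 0.55, lie farthest from 0.

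Of the 7 measured stress regulators 3 were lower, DDIT3, ATF4 and, by less, DDIT4, and 4 were higher. ATF4 (probe set TC2200007406.hg.1) read 12.61, 12.46 and 12.59 in siCon and 12.11, 12.28 and 12.07 in siERK3, or 12.55 ± 0.08 and 12.15 ± 0.11 (SD, n = 3). All 3 siERK3 arrays were below all 3 siCon arrays. The difference was -0.40 (SE 0.13), 1.32-fold, and its adjusted p in limma was 0.238. Without each array in turn it stayed between -0.46 and -0.36.

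DDIT3 (TC1200010968.hg.1) encodes CHOP, a C/EBP-type partner of ATF4 that rises under lasting stress. Its values were 7.26, 7.07 and 7.01 in siCon and 6.51, 6.25 and 6.74 in siERK3, every one of them below background. The groups did not overlap, and the difference was -0.61 (SE 0.16; adjusted p = 0.133 in limma). No fold is given for a gene below background in both groups. TRIB3 (TC2000006444.hg.1), a pseudokinase that ATF4 and CHOP induce and that feeds back on both, was also below background on every array. It read 7.51, 7.16 and 6.96 in siCon and 7.08, 7.33 and 7.22 in siERK3. These ranges overlap, with a difference of 0.00 (SE 0.17; -0.02 with quantile normalization and with cyclic loess, and -0.01 with array medians subtracted).

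The other stress regulators had overlapping groups. DDIT4, which encodes REDD1, an inhibitor of mTORC1, had a difference of -0.11 (SE 0.17), with array values from 12.75 to 13.13 in siCon and 12.75 to 13.14 in siERK3. SESN2, a leucine sensor that restrains mTORC1, had 0.14 (SE 0.17) and was above background on 1 of 6 arrays. CEBPB had 0.05 (SE 0.16; -0.07 at the lowest with an array left out). CEBPG, the C/EBP partner with which ATF4 binds many of its sites and the stress regulator with the motif, had 0.15 (SE 0.16).

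**Figure D3:**
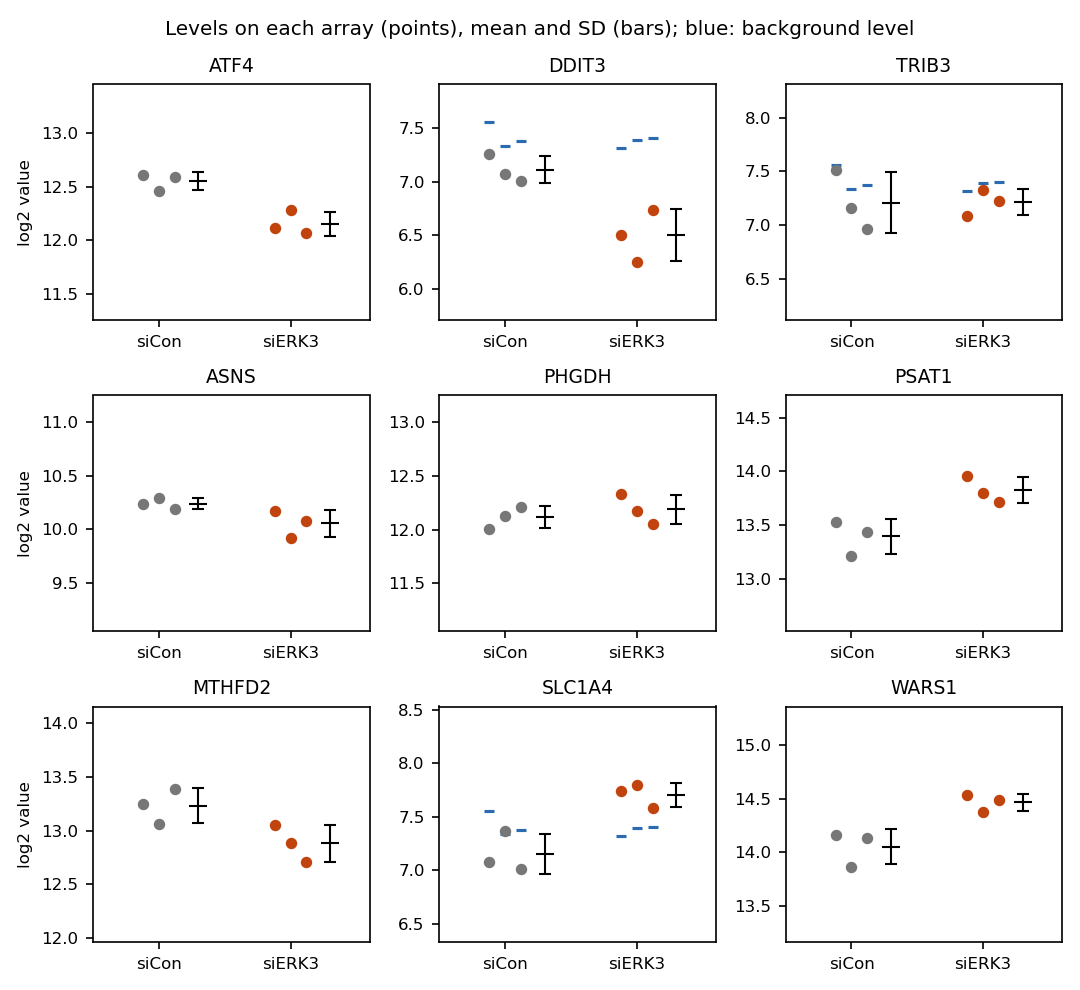
Log2 values of 9 members (panels) on the 3 siCon (grey) and 3 siERK3 (orange) arrays, with the mean and SD as black bars; each y axis spans the same range. Blue dashes mark the background level where it falls inside the panel. ATF4, DDIT3 and MTHFD2 lie lower, PSAT1, SLC1A4 and WARS1 higher on all 3 siERK3 arrays, and DDIT3 and TRIB3 lie below background.

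The serine pathway takes a glycolytic intermediate to serine in 3 enzyme steps, and the differences of its members had no common sign. PHGDH (TC0100009621.hg.1), the committed step, read 12.01, 12.12 and 12.21 in siCon and 12.33, 12.18 and 12.06 in siERK3. The groups overlapped, with a difference of 0.07 (SE 0.14; adjusted p = 0.867 in limma). PSAT1 (TC0900007667.hg.1), the transaminase that follows it, read 13.53, 13.21 and 13.44 in siCon and 13.96, 13.80 and 13.72 in siERK3. Every siERK3 value was above every siCon value. The difference was 0.43 (SE 0.14), 1.35-fold, with an adjusted p of 0.245 in limma. PSPH, the phosphatase that releases serine, was above background on 1 of 3 siCon and 3 of 3 siERK3 arrays. Its siERK3 values were 7.49, 8.16 and 7.52 against 7.24 to 7.42 in siCon, so that siERK3 2 alone stood well clear. The difference of 0.37 (SE 0.19) was 0.15 without siERK3 2.

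Serine is then split by SHMT2 in mitochondria, and MTHFD2, MTHFD1L and ALDH1L2 carry the released carbon unit through the folate cycle. MTHFD2 (TC0200008071.hg.1) read 13.25, 13.06 and 13.39 in siCon and 13.06, 12.88 and 12.71 in siERK3. The groups were only just apart, since siCon 2 and siERK3 1 printed the same to the last decimal given here. The difference was -0.35 (SE 0.15), 1.27-fold (adjusted p = 0.368 in limma). ALDH1L2, which oxidises the formyl group, had -0.23 (SE 0.15) and SHMT2 -0.11 (SE 0.12), both with groups that did not overlap. With each array left out ALDH1L2 ran from -0.30 to -0.10. The SHMT2 values were tight, at 14.18 ± 0.01 in siCon and 14.07 ± 0.05 in siERK3 (SD, n = 3). MTHFD1L, the formate-producing step and the enzyme of this group with the motif, had -0.02 (SE 0.15). In it the siERK3 arrays spread from 10.86 to 11.31, wider than the siCon arrays at 11.07 to 11.17. With each array left out the difference ran from -0.13 to 0.10.

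ASNS (TC0700011876.hg.1), the asparagine synthetase with the site shown above, read 10.23, 10.29 and 10.19 in siCon and 10.17, 9.92 and 10.08 in siERK3. The siERK3 arrays were all lower, siERK3 1 by a narrow margin. The difference was -0.18 (SE 0.13; adjusted p = 0.618 in limma), with an interval from -0.48 to 0.12. Proline is made from glutamate by ALDH18A1 and then PYCR1. ALDH18A1 had a difference of 0.00 (SE 0.13) and PYCR1 of -0.24 (SE 0.15), with overlapping groups in both. PCK2, the mitochondrial enzyme that makes phosphoenolpyruvate, was below background on all arrays, at 5.73 in siCon and 5.90 in siERK3.

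Of the 6 amino acid transporters, SLC1A4 differed most. SLC1A4 (TC0200007821.hg.1), an exchanger of alanine, serine and cysteine, read 7.07, 7.37 and 7.01 in siCon and 7.74, 7.79 and 7.58 in siERK3. The siERK3 arrays were all higher and all above background, against 1 of 3 siCon arrays. The difference was 0.55 (SE 0.15), with an adjusted p of 0.142 in limma. Its relative SLC1A5, the main glutamine importer, had 0.08 (SE 0.13). SLC7A5, the light chain of the leucine transporter, had -0.02 (SE 0.13) and SLC7A1, an arginine and lysine carrier, -0.04 (SE 0.13). These 2 gave the narrowest limits of the group, with intervals from -0.31 to 0.28 and from -0.33 to 0.25.

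The sodium-coupled carriers of small neutral amino acids were the least even between arrays. SLC38A1 had a difference of 0.13 (SE 0.16). SLC38A2, which amino acid shortage is known to induce, spanned 14.09 to 15.16 in siCon and read 14.64, 14.56 and 14.33 in siERK3. The siCon 2 array was the lowest of all 6, and the siCon SD of 0.58 was above that of every other member. The difference of -0.24 (SE 0.26; adjusted p = 0.763 in limma) became -0.57 without siCon 2 (adjusted p = 0.198) and -0.03 at the other extreme of the fits with an array left out.

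The tRNA synthetases attach amino acids to their tRNAs, and 11 of the 12 listed were measured, all above background on all 6 arrays. WARS1 (TC1400010195.hg.1), the tryptophan enzyme, which interferon gamma is also known to induce, read 14.16, 13.87 and 14.13 in siCon and 14.53, 14.38 and 14.49 in siERK3. The groups did not overlap. The difference was 0.41 (SE 0.14), 1.33-fold, with an adjusted p of 0.245 in limma. CARS1, the cysteine enzyme, had 0.23 (SE 0.15) and YARS1, the tyrosine enzyme, -0.20 (SE 0.12), also without overlap. With each array left out CARS1 ran from 0.09 to 0.30. For the other 8 the groups overlapped. LARS1, the leucine enzyme, had -0.24 (SE 0.16) and SARS1, the serine enzyme, 0.19 (SE 0.16), and AARS1, EPRS1, GARS1, IARS1, NARS1 and TARS1 lay between -0.12 and 0.10. GARS1, the glycine enzyme, was the steadiest in siCon (14.07 ± 0.03, SD, n = 3) and had a difference of 0.00 with an interval from -0.28 to 0.29.

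Members with and without the motif were then set side by side. The 13 measured members with it had a median difference of 0.07 and ran from -0.18 (ASNS) to 0.55 (SLC1A4), with 8 higher and 5 lower. The 16 measured members with a window but without it had a median of 0.00 and ran from -0.61 to 0.43. Of the 6 members at an unadjusted p under 0.05, SLC1A4 was the one with the motif, and 5 had a window without it. These were 7.69% and 31.25% of their sets, against 10.7% and 13.8% of all genes tested with and without the motif. The 6 measured members without a window had a median of -0.21, with 1 higher and 5 lower, and 0 reached that level. Whether the motif bears on the differences was not tested. In windows of this length DDIT3, ATF4, PSAT1, MTHFD2 and WARS1 did not hold these letters.

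Arrays of the same group also differed in the mean level of a role, a pattern chosen after its values were seen. The mean deviation of the tRNA synthetases from their own means was -0.13 on siCon 2, against 0.07 on siCon 1 and 0.00 on siCon 3, and siCon 2 gave the lowest siCon value for 7 of 11 synthetases, against 34.6% of all genes. AARS1, EPRS1, IARS1, NARS1, SARS1 and WARS1 were among them, while CARS1 went the other way, with 10.51 on siCon 1 and 10.94 on siCon 2. On siERK3 3 the transporters averaged -0.10 and the serine and folate enzymes -0.12, against 0.11 and 0.09 on siERK3 1. All 6 transporters had their lowest siERK3 value on siERK3 3, against 34.6% of all genes. The means of the stress regulators were 0.01 to 0.10 in siCon and -0.10 to -0.02 in siERK3. Their median difference was 0.00, and DDIT3 (-0.61, below background on every array) and ATF4 (-0.40) were the farthest from 0. The means of the other roles were not as cleanly divided, apart from the asparagine, proline and phosphoenolpyruvate enzymes at -0.01 to 0.08 and -0.04 to -0.02.

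**Figure D4:**
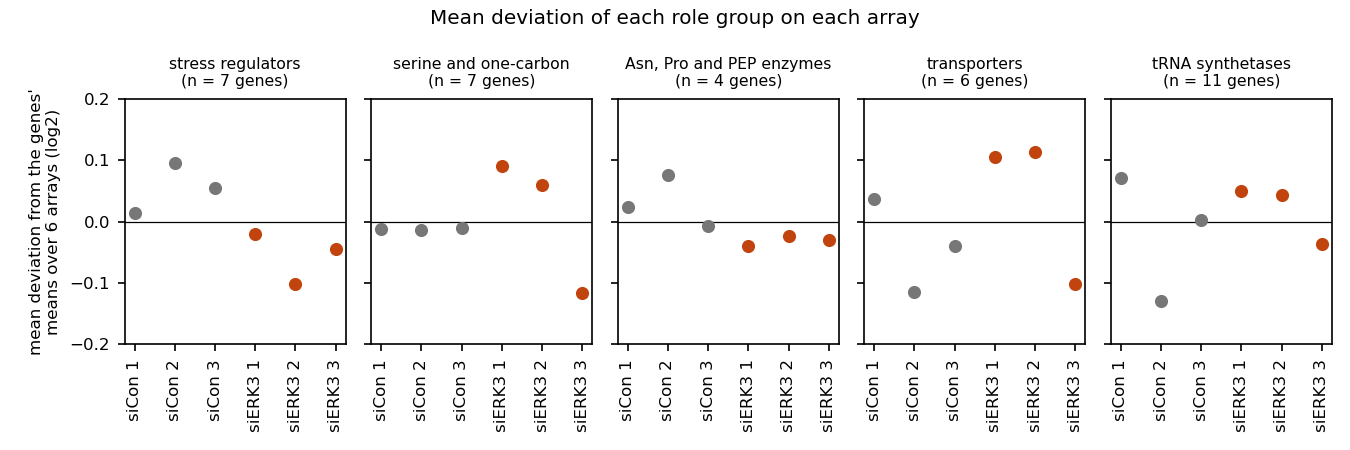
Mean deviation of the members of each role from their own means over the 6 arrays (y axis, log2), by array, siCon in grey and siERK3 in orange. The tRNA synthetases are lowest on siCon 2 (-0.13), and the serine and folate enzymes and the transporters are low on siERK3 3 (-0.12 and -0.10).

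The rest of the pathway was read from lists of genes outside the members. The first list held the kinases that phosphorylate eIF2, the eIF2 and eIF2B subunits and the phosphatase subunits that reverse the mark. In it 0 of 18 measured genes passed the test, with a median of -0.01. At an unadjusted p under 0.05, 2 were lower and 0 higher, or 11.1% against 13.5% of all genes. PPP1R15A (GADD34), which ATF4 and CHOP induce and which restores translation, had a difference of -0.49 (SE 0.19; adjusted p = 0.317 in limma) with overlapping groups. OMA1, the mitochondrial protease that relays stress to this pathway, had -0.42 (SE 0.15), and PPP1R15B, the constitutive phosphatase subunit, -0.24 (SE 0.13). EIF2AK4 (GCN2), the kinase that senses uncharged tRNA, had 0.01 (SE 0.12). EIF2AK3 had -0.26 (SE 0.16), with all siERK3 arrays below all siCon arrays. EIF2AK2 had 0.12 (SE 0.13), with all siERK3 arrays above all siCon arrays by a narrow margin. EIF2AK1 had 0.06 (SE 0.15) with overlapping groups. The kinases are named here after their values were seen.

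Of 25 measured ATF4 targets outside the members, SLC7A11 fell and 24 did not pass, with a median of 0.02. The unadjusted p in limma was under 0.05 for 6, or 24% against 13.5% of all genes, with 4 higher and 2 lower. SLC7A11, the cystine importer, read 12.28, 12.30 and 12.22 in siCon and 11.12, 10.88 and 10.43 in siERK3. The groups lay far apart, with a difference of -1.45 (SE 0.18), 2.74-fold, and an adjusted p of 0.0135 in limma. The call was lost without siCon 1 (adjusted p = 0.0655), siCon 3 (0.0596) or siERK3 2 (0.0685), while the difference stayed between -1.61 and -1.27. SLC3A2, the heavy chain that SLC7A11 and SLC7A5 share, had -0.13 (SE 0.14) and is named after its value was seen. SLC6A9, a glycine transporter, read 8.89, 8.19 and 8.70 in siCon and 9.65, 9.55 and 9.29 in siERK3, a difference of 0.90 (SE 0.20; adjusted p = 0.0817 in limma). SQSTM1, the autophagy receptor p62, had -0.58 (SE 0.13; adjusted p = 0.0837). CBS (0.53), LONP1 (0.47) and SLC43A1 (0.33), named after their values were seen, were the other genes at an unadjusted p under 0.05. Of these 25 genes 11 were below background on all arrays, CHAC1 and ATF3 among them.

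Cytosolic synthetase genes and the scaffold partner AIMP1, all outside the members, gave 0 of 6 past the test (median -0.04). Mitochondrial synthetases gave 0 of 15 (median -0.06). RARS1, the arginine enzyme, had -0.35 (SE 0.14), while FARSB and FARSA, the subunits of the phenylalanine enzyme, had -0.13 and 0.10. In mitochondria CARS2 had 0.55 (SE 0.15; adjusted p = 0.137 in limma), FARS2 0.43 (SE 0.15) and MARS2 0.36 (SE 0.16), the last below background in both groups. That list had 7 genes higher and 8 lower, and RARS2 (-0.34), IARS2 (-0.22) and YARS2 (-0.21), named after their values were seen, had all siERK3 arrays below all siCon arrays. Among 14 folate and glycine enzymes 0 passed, with a median of -0.07. MTR, the methionine synthase, had -0.59 (SE 0.16; adjusted p = 0.142 in limma), SFXN1, a mitochondrial serine carrier, -0.36 (SE 0.14) and GGH -0.27 (SE 0.14), each with all siERK3 arrays below all siCon arrays.

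**Figure D5:**
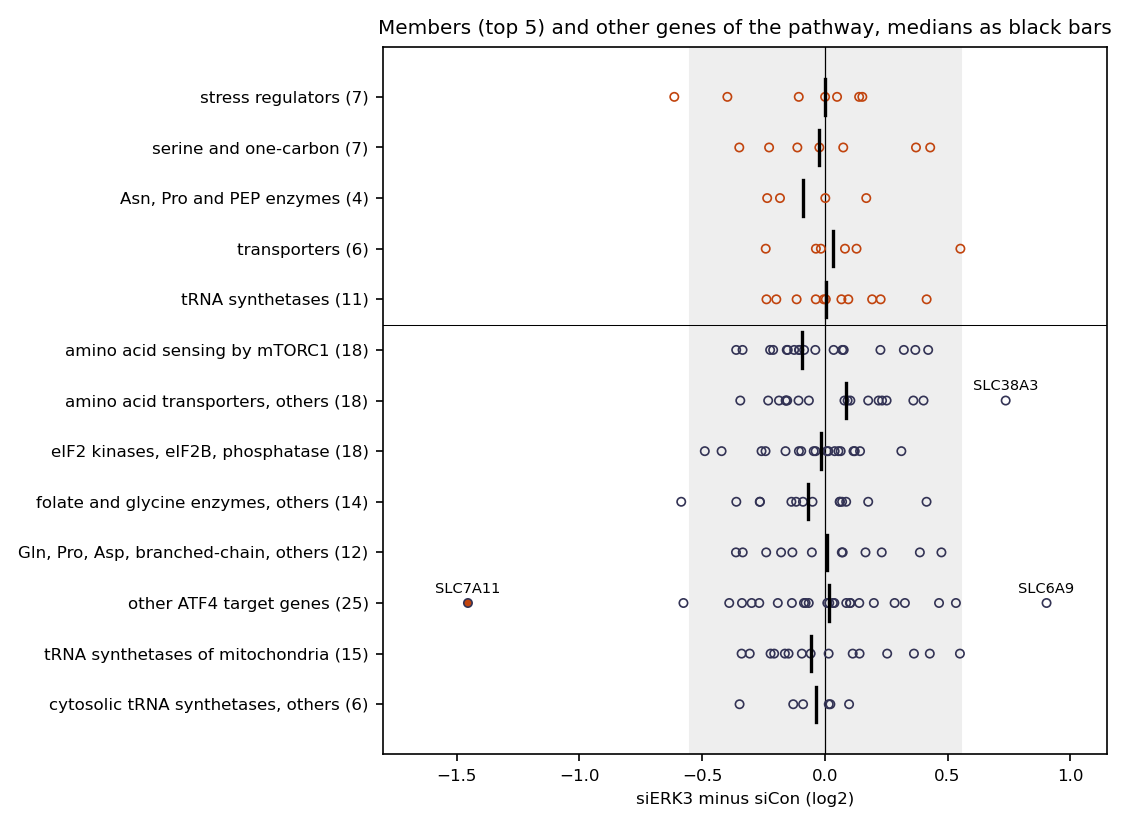
Differences (siERK3 minus siCon, log2, x axis) of the members by role (orange, top 5 rows) and of the other lists of the pathway (dark), with the number of measured genes in parentheses, medians as black bars and a filled point for a gene past the test. The shaded band, -0.55 to 0.56, holds 95% of all genes tested; SLC7A11 at -1.45 is the filled point. SLC6A9 at 0.90 and SLC38A3 at 0.74 lie above the band, and the member DDIT3 at -0.61, MTR at -0.59 and SQSTM1 at -0.58 lie below it.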

How the data were processed

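RNA of 6 A375 samples was hybridised to 1-colour Affymetrix Clariom S Pico arrays, per the labels and the series design. The values deposited by the authors were read as log2 signals, 1 for each probe set on each array. For their background correction and normalization, no method is given in the sources used here. Of the values, 1.46% to 1.61% per array lie above 16 on that scale, beyond what a scanner of 16 bits can record. Neither zero point nor stretch is known, so every fold given here rests on the log2 reading.

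The platform annotation named 17709 of 24351 probe sets with 1 symbol; for 20 genes the brightest of several was kept, with no filter or pseudocount. limma 3.58.1 in R 4.3.3 (lmFit, eBayes, no covariate) was fitted over all 17687 genes. The same fit was run on simulated arrays with known changes, all of them larger than any member's difference. That run sets no limit for differences of the members' size. Intervals are 95% intervals of the moderated fit; the number of arrays limits the precision. Motifs and figures used Python 3.11.15.

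The members and lists were chosen with earlier results of these data known. Values on every array are given for members past the threshold, for those at an unadjusted p under 0.05 whose groups do not overlap, and for ATF4, DDIT3, TRIB3, ASNS, PHGDH, PSAT1 and MTHFD2. From each other list, genes past the threshold and up to 3 by p are named with their differences. Array values of PSPH, SLC38A2, SLC7A11, SLC6A9 and BCAT2 were added after they were seen. Alternatives were 3 normalizations, a filter at the 30th percentile, the mean of probe sets, all probe sets, a variance trend, array weights, the replicate block and each array left out. The number of sample columns left unmapped was 0.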

Additional observations from a re-analysis of the deposited data

How the results depend on the processing

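Under 15 alternatives 24 of the 35 members kept their sign and 3 passed the test in any. The count of members past the test was 0 in every alternative except the variance trend with robust moderation, where it was 3, and 0 to 0 with each array left out. The other lists of the pathway had 1 of 126 measured genes past the test and 7 with the variance trend. With each array left out there were 0 to 1. With the filter on low values there were 4 (CBS, SLC6A9, SLC7A11 and SQSTM1). CBS was named after its value was seen. TRIB3 turned from 0.00 to -0.0172 with quantile normalization, -0.0129 with array medians subtracted and -0.0156 with cyclic loess, and ran from -0.12 to 0.15 with each array left out. The MAPK6 difference of -3.03 kept its call throughout. Over all genes 169 were called, 365 with the filter, 62 over all probe sets, 722 with the variance trend and 23 to 60 with each array left out. The deviations of same-numbered arrays from their group means correlated at 0.05, -0.12 and -0.04, against -0.15 to 0.17 for arrays with different numbers. With 3 arrays per group these values cannot decide whether the numbers pair the arrays. The fit with the replicate block called 33 genes, 0 members and SLC7A11, and not every array correlated best with its own number. The cause of these changes was not tested. DDIT3, TRIB3 and PCK2, below background on all arrays, have no usable level.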

Other observations

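Further genes of amino acid supply and sensing followed the members in passing no test. Of 12 measured enzymes of glutamine, proline, aspartate and branched-chain metabolism outside the members, 0 passed in limma, with a median of 0.01. At an unadjusted p under 0.05, 2 were higher, or 16.7% against 13.5% of all genes. BCAT2, the mitochondrial branched-chain transaminase, had a difference of 0.48 (SE 0.14; adjusted p = 0.201 in limma), with 10.22, 10.52 and 10.30 in siCon and 10.82, 10.96 and 10.68 in siERK3. PYCR3 (0.39) and ALDH4A1 (-0.33) were below background on all 6 arrays. Of 18 further amino acid transporters 0 passed, with a median of 0.09. Under an unadjusted 0.05 there were SLC38A3 (0.74) and SLC38A4 (-0.34), both below background throughout, or 11.1% of the list. SLC7A2, a cationic carrier, had 0.36 (SE 0.19). Of 18 genes by which mTORC1 senses amino acids 0 passed, with a median of -0.09. At an unadjusted p under 0.05, 1 was higher and 0 lower, or 5.56% against the same 13.5% of all genes. CASTOR2, of the arginine sensor family, had 0.42 (SE 0.15; adjusted p = 0.267 in limma), RRAGD -0.36 (SE 0.17) and the kinase MTOR -0.34 (SE 0.17).

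The motif TGATGNAA was also counted in the windows of all genes past the test. It was present for 0 of 65 genes called higher and for 4 of 68 called lower (GCNT2, IL7R, MAST4 and SORBS2, named after their values were seen), against 3.59% of the genes tested that had a window. Of 20 other ATF4 targets with a window 5 held it (ATF3, CHAC1, FGF21, JDP2 and SLC3A2).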
